A study of Homo sapiens with 12 samples.

Results

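Cisplatin-resistant SKOV-3 cells that lack both histone demethylase genes KDM5A and KDM5B were compared with parental SKOV-3 cells that lack the same genes. SKOV-3 is an established human ovarian adenocarcinoma cell line, and SKOV-3 CDDP is its cisplatin-resistant derivative. The study holds 12 poly(A) RNA-seq libraries in 4 groups of 3: parental cells, parental double-knockout cells (parental dKO), resistant cells, and resistant double-knockout cells (resistant dKO). The 3 resistant dKO and 3 parental dKO libraries described here were chosen by genotype and drug resistance as the sample titles give them, 6 of the 12, and the 6 wild-type libraries serve as the matching resistance contrast without the knockout. Both groups compared here therefore carry the KDM5A and KDM5B knockout, and differ in the resistance label. All cells were grown in RPMI medium with fetal bovine serum. Whether cisplatin was present at harvest and whether each knockout line was a clone or a pool are not stated in the labels. Any difference between the 2 knockout lines other than resistance cannot be told apart from it. The series concerns KDM5 proteins in cisplatin resistance, and the comparison asks which differences between resistant and parental cells are still seen when both demethylases are knocked out.

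KDM5A and KDM5B remove methyl groups from lysine 4 of histone H3, a mark found at active promoters, and both have been studied for their part in drug-tolerant states of cancer cells. Cisplatin enters cells in part through copper and organic cation transporters, is bound by thiols such as glutathione and metallothionein, and forms DNA crosslinks that are removed by excision repair and homologous recombination.

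Library totals ran from 15659352 to 19706754 counts. The KDM5A transcript measured 22.5, 20.9 and 15.6 CPM (counts relative to the effective library size) in the parental dKO libraries and 17.6, 14.8 and 12.0 in the resistant dKO libraries, against 30.9, 41.5 and 39.4 in parental and 39.9, 39.0 and 33.4 in resistant cells with both genes. All 6 knockout libraries lay below all 6 wild-type libraries. KDM5B measured 57.4, 78.7 and 25.3 CPM in parental dKO and 84.8, 56.9 and 28.3 in resistant dKO and was not set apart from the wild-type libraries. Between the 2 knockout groups neither transcript differed by a two-sided exact permutation test (KDM5A p = 0.2, KDM5B p = 0.8, where 3 against 3 libraries cannot go below 0.1). Transcript levels do not measure the proteins, and a frameshifted allele can keep its transcript. Among markers of the line, ERBB2, which SKOV-3 carries amplified, ran from 798 to 4731 CPM in parental dKO and from 811 to 1016 in resistant dKO, keratins KRT8 and KRT18 were above 50 CPM in all 6 libraries, and CDKN2A stayed at or below 0.099. EPCAM, an epithelial adhesion protein, went from 24.6, 38.1 and 50.0 CPM to 14.1, 14.1 and 5.06, without overlap. Leukocyte and erythroid markers had no member that averaged 1 CPM, with summed levels of at most 1.67 and 0.301 CPM per library. Of 6 endothelial markers, ROBO4 alone averaged 1 CPM, in resistant dKO. Mitochondrial transcripts took 10.7, 6.54 and 16.3% of counts in parental dKO libraries 1, 2 and 3 and 7.58, 8.99 and 5.93% in resistant dKO, so parental dKO library 3 stood apart on this measure. Nothing in the labels ties a library to its own culture. The p-values therefore measure the spread among these libraries, which may be technical.

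Among 17947 genes tested, 4281 (23.9%) differed between resistant dKO and parental dKO cells, 2445 higher (13.6%) and 1836 lower (10.2%) in the resistant cells. The threshold was an adjusted p under 0.05 in edgeR's quasi-likelihood test with Benjamini-Hochberg adjustment, fitted over all 12 libraries, and 3813 genes (21.2%) also changed at least 2-fold. Libraries of the groups did not overlap for 6676 genes (37.2%). Protein-coding genes made up 1984 of the genes that rose and 1457 of those that fell, and 184 and 121 were long intergenic noncoding RNAs. Without resistant dKO library 1 the number called was 2715, without resistant dKO library 2 it was 2714, and without parental dKO library 2 the number that fell was 1180 in place of 1836. When libraries were scaled by their totals alone, which moved the median of all genes by 0.15 on the log2 scale, 68.2% of called genes were higher in place of 57.1%. Log2 fold changes below are resistant dKO minus parental dKO with their SE, and each adjusted p comes from the same edgeR test.

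**Figure D1:**
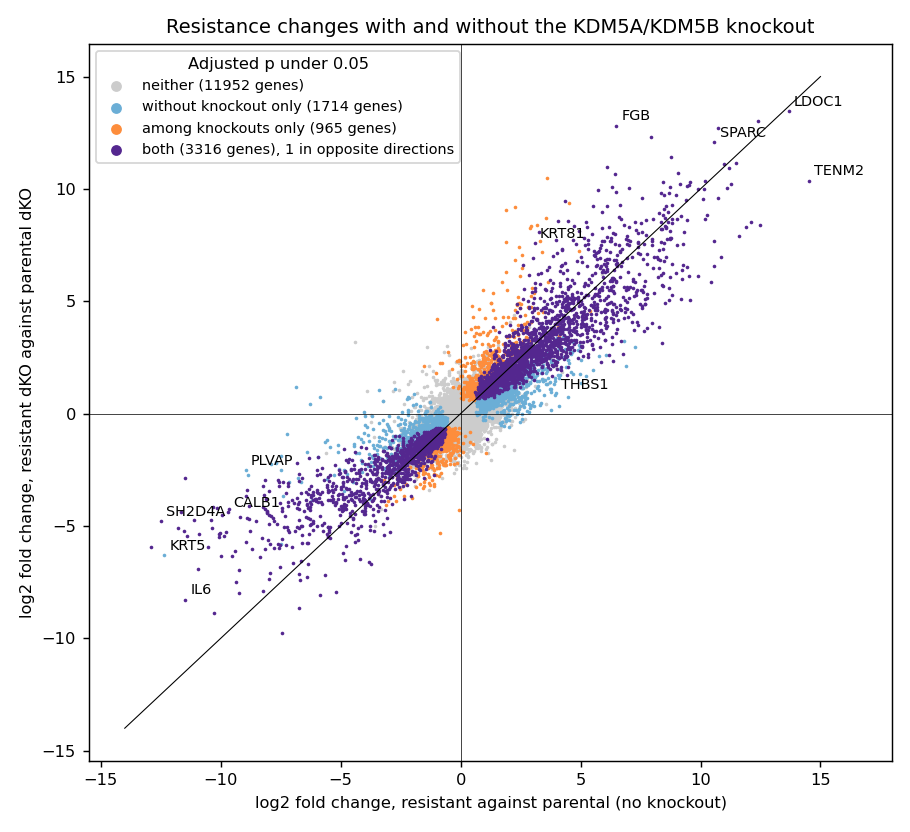
Each point is 1 gene, with the log2 fold change of resistant against parental cells without the knockout on the x axis and among double-knockout cells on the y axis, and colours show in which contrast the gene passed the edgeR test. The cloud lies along the diagonal, 3315 genes passed in the same direction in both contrasts, and ZNF540 passed in opposite directions.

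The largest increases were in genes with no reads, or almost none, in parental dKO cells. LDOC1 (ENSG00000182195, chromosome X, 141175745 to 141177125; GRCh38 coordinates throughout), which encodes a leucine zipper protein, had 0 reads in all 3 parental dKO libraries and 76.3, 57.0 and 106 CPM in resistant dKO, at least 1389-fold higher when the empty group is set to 3 counts over its 3 libraries. CYB5A (ENSG00000166347, chromosome 18, 74250847 to 74292016), a cytochrome b5 that passes electrons to desaturases and P450 enzymes, also had 0 reads in parental dKO and measured 63.8, 56.9 and 58.9 CPM in resistant dKO, at least 1058-fold higher. TMEM218, a ciliary transition zone protein (ENSG00000150433, chromosome 11, 125096545 to 125111763), measured 14.9, 18.7 and 14.5 CPM against 0 reads, at least 282-fold higher. These 3 genes had no reads in the 3 wild-type parental libraries either, and were expressed in all 6 resistant libraries. EdgeR's adjusted p was 4.53e-06 for LDOC1, 5.9e-06 for CYB5A and 1.31e-05 for TMEM218. In bulk RNA, a gene switched on in few cells and a gene expressed weakly in all cells cannot be told apart.

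The sequences before the start sites of these 3 genes are shown as examples of a shift from no reads to clear expression in both resistance contrasts. They are not the 3 largest such increases among knockouts. FGB, EPB41L3, PTN and CXCL12, described below, also had 0 reads in parental dKO and rose by more than TMEM218. Each is the 250 bases upstream of the RefSeq start site on GRCh38.p14, read 5′ to 3′ on the gene's strand (minus for all 3), with every CG dinucleotide in capitals: LDOC1 at chrX:141177130-141177379, CYB5A at chr18:74291964-74292213 and TMEM218 at chr11:125111627-125111876.
LDOC1: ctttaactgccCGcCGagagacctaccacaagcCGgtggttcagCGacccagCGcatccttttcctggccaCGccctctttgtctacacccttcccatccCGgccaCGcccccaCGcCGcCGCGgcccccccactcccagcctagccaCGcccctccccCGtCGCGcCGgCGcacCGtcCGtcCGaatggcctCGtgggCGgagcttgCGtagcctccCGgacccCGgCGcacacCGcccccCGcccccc
CYB5A: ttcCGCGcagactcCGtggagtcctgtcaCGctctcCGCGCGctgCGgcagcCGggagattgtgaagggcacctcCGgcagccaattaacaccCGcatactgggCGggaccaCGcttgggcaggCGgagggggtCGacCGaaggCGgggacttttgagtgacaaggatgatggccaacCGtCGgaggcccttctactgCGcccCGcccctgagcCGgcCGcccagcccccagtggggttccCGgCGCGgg
TMEM218: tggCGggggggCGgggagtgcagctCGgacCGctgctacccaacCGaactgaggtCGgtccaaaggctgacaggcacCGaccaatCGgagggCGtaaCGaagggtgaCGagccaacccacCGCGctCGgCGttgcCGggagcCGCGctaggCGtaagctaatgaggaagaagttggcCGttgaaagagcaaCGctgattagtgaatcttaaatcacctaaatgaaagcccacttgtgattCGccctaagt
They hold 29, 26 and 22 CG dinucleotides. The same 250 bases were read for other promoters of the RefSeq table. In 53 of them the gene was protein-coding, called higher, without reads in parental dKO and at 1 CPM or more in resistant dKO. Their median number of CG dinucleotides was 13. It was 21 for 11136 tested protein-coding genes with a promoter in the table, 19 for those higher and 21 for those lower. LDOC1, CYB5A and TMEM218 thus lay above the median of their own set, and the counts describe the letters only, since methylation was not measured.

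In all, 97 called genes had no reads in parental dKO and at least 1 CPM in resistant dKO, and 6 showed the reverse. Of the 97, 69 were protein-coding, 61 had no reads in wild-type parental cells, and 84 were also called higher in resistant cells without the knockout. SNCB, beta-synuclein, went from 0 reads to 14.3, 12.1 and 21.4 CPM, at least 276-fold higher. MAGEH1, a member of the melanoma antigen family, measured 13.8, 21.4 and 6.36 CPM against 0 reads (at least 249-fold), and its X-linked relative MAGEA8 measured 47.2, 38.8 and 44.5 CPM against 0, 0 and 0.057, a ratio of 2306 (95% exact counting interval 414 to 91140). GATA4, a transcription factor of heart and gonad, had 0 reads in parental dKO and 16, 12.2 and 15 CPM in resistant dKO, at least 255-fold higher.
Every resistant dKO library exceeded every parental dKO library for these genes, which the choice of genes required.
EPB41L3, a cytoskeletal adaptor at cell junctions, reached 47.8, 36.1 and 56.6 CPM from 0 reads (at least 820.0-fold), and PTN, the heparin-binding growth factor pleiotrophin, reached 36.6, 49.3 and 20.9 CPM (at least 637-fold). CXCL12, the ligand of the chemokine receptor CXCR4, had 0 reads in parental dKO and 35.5, 20.3 and 3.09 CPM in resistant dKO (log2 fold change 11.44 ± 2.14, edgeR adjusted p = 0.00563, at least 367-fold). Its 3 resistant dKO libraries spanned more than a 10-fold range, and library 3 was the lowest. Without the knockout CXCL12 was also higher, at 7.35, 1.83 and 0.16 CPM in resistant cells against 0 reads in parental cells.

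**Figure D2:**
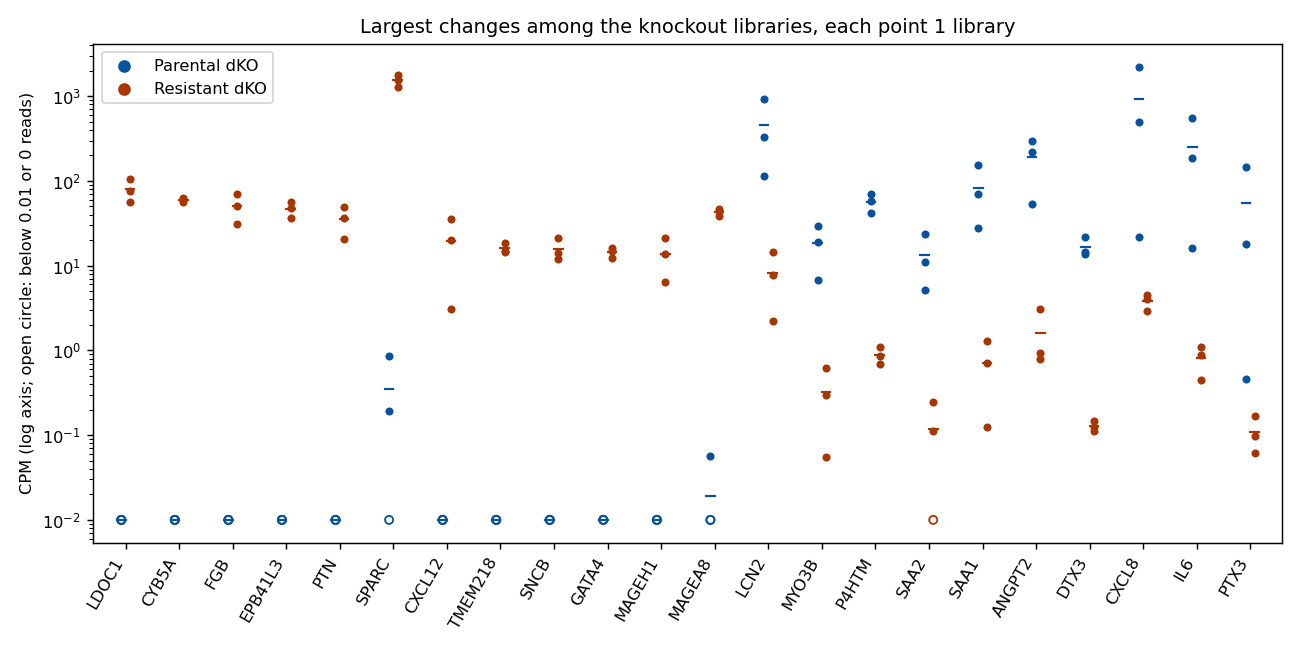
CPM of each library on a log axis for the 12 genes with the largest increase (left) and most of the 12 with the largest decrease (right); blue points are the 3 parental dKO and red points the 3 resistant dKO libraries, dashes are group means, and open circles at the bottom stand for 0 reads. The 2 groups do not overlap for any gene shown, which the choice of genes required, and parental dKO spreads widely for IL6, CXCL8 and PTX3.

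The largest decreases were in inflammatory genes. IL6 (ENSG00000136244, chromosome 7, 22725884 to 22732002), the cytokine that signals through STAT3, measured 185, 559 and 16 CPM in parental dKO and 0.45, 0.89 and 1.11 in resistant dKO (log2 fold change -8.28 ± 1.31, edgeR adjusted p = 0.000878). CXCL8 (ENSG00000169429, chromosome 4, 73740506 to 73743716), a neutrophil-attracting chemokine, measured 493, 2233 and 22.1 CPM against 2.92, 4.54 and 4.08 (log2 fold change -7.89 ± 1.45, edgeR adjusted p = 0.0022). PTX3, a secreted pattern recognition protein, measured 17.9, 147 and 0.46 CPM against 0.099, 0.17 and 0.062 (log2 fold change -8.88 ± 2.01, edgeR adjusted p = 0.00743). PTX3 lost its call with limma-voom (adjusted p = 0.148). All 3 were low in every resistant dKO library, and in parental dKO all 3 were highest in library 2 and lowest in library 3. Wild-type parental libraries had the same order, with IL6 at 171, 201 and 18.2 CPM, CXCL8 at 229, 791 and 52.8 and PTX3 at 12.5, 83.6 and 1.92. Their mitochondrial shares were 7.75, 5.34 and 7.55%. Parental dKO library 3 was the one with the highest mitochondrial share, and the part of that share in these levels was not tested. The acute-phase genes SAA1 and SAA2 and the iron-binding lipocalin LCN2 fell too, SAA1 from 83.7 ± 64.4 CPM (mean ± SD, n = 3) to 0.71 ± 0.58, SAA2 from 13.3 ± 9.52 to 0.12 ± 0.12 and LCN2 from 459.8 ± 428 to 8.13 ± 6.07.

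In the list of 30 tested NF-kB, cytokine and chemokine genes, 20 fell and 1 rose, against 10.2% and 13.6% of all genes tested, and the list's median log2 fold change was -3.39 against -0.00 for all genes tested. NF-kB is the transcription factor family that switches on cytokine and chemokine genes after inflammatory signals. Of its subunits and feedback inhibitors 6 of 9 fell, as did 4 of 7 cytokines, 5 of 6 chemokines and 5 of 8 other targets. The gene that rose was CCL20, a lymphocyte-attracting chemokine, with 0.15, 0.90 and 0.057 CPM in parental dKO and 3.51, 2.82 and 1.11 in resistant dKO (log2 fold change 2.77 ± 0.86, and 4.47 without parental dKO library 2). CCL20 lost its call without parental dKO libraries 1 and 3 and resistant dKO libraries 1 and 2 (edgeR adjusted p up to 0.108). Leaving out 1 of the 6 knockout libraries left between 16 and 22 genes of the list lower. In cells without the knockout 18 of the same 30 fell and 1 rose, with a median of -3.05. Since the list was drawn up with results of these libraries known, its direction is not independent evidence.

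Sequences upstream of IL6, CXCL8 and the chemokine gene CXCL1 are shown because the list's promoters share a motif, with CXCL1 chosen after its values were seen. Each is 250 bases before the RefSeq start site (GRCh38.p14, plus strand), and capitals mark matches to the kB motif GGNNTTTCC, searched on both strands: IL6 at chr7:22726950-22727199, CXCL8 at chr4:73740319-73740568 and CXCL1 at chr4:73869143-73869392.
IL6: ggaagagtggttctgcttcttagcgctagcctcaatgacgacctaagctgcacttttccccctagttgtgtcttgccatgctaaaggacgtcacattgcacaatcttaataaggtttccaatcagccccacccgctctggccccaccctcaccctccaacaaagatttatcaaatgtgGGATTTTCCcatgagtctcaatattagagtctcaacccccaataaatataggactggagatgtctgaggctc
CXCL8: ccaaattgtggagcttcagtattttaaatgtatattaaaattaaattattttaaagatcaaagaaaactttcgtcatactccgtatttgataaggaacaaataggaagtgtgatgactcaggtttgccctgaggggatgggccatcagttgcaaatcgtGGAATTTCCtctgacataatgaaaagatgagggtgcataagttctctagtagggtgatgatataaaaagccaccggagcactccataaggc
CXCL1: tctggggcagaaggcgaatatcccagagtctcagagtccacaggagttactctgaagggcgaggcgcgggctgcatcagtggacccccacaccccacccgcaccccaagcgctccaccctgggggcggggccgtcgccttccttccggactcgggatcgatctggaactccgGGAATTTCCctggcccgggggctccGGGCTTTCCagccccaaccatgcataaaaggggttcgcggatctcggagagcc
The match begins 72 bases before the start in IL6, 91 in CXCL8, and 78 and 53 in CXCL1. Over the same 250 bases, 16 of 26 list members with a promoter in the table (61.5%) held the motif, as did 10 of the 15 that fell. The motif was held by 5.48% of 27305 promoters and 5.95% of the 11136 tested protein-coding ones. Of all 1160 genes that fell and had a promoter, 7.16% held it, and of 1534 that rose, 5.22%. A match describes letters in this window and is not evidence of binding, and the list was built from genes known as NF-kB targets.

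Other large decreases concerned genes of diverse function. ANGPT2, a ligand of the endothelial receptor TIE2, measured 295, 221 and 53.4 CPM in parental dKO and 0.79, 0.94 and 3.09 in resistant dKO (log2 fold change -6.90 ± 0.83, edgeR adjusted p = 0.00013). P4HTM, a transmembrane prolyl hydroxylase, measured 70.2, 42.0 and 58.6 against 0.69, 1.11 and 0.86 (log2 fold change -5.99 ± 0.39), and DTX3, a ubiquitin ligase of the Deltex family, 21.7, 14.7 and 13.7 against 0.15, 0.11 and 0.12 (-6.95 ± 0.54). For these genes the libraries of each group kept within narrow bounds compared with the gap between groups. MYO3B, a class III myosin, fell from 18.4 ± 11.4 to 0.32 ± 0.28 CPM (mean ± SD, n = 3).

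More extracellular matrix genes rose than fell in resistant dKO cells, and in the lists of glycoproteins and of enzymes many passed the test in neither direction. Of 18 collagens tested, 11 rose and 1 fell, with a median log2 fold change of 2.56. Of 23 matrix glycoproteins and proteoglycans 9 rose and 3 fell (median 1.09), and of 27 matrix-modifying enzymes and inhibitors 11 rose and 2 fell (median 1.15). In all, 66.7, 52.2 and 48.1% of the 3 lists were called, against 23.9% of all genes tested. SPARC (ENSG00000113140, chromosome 5, 151661096 to 151687165), a collagen-binding glycoprotein, measured 0, 0.19 and 0.86 CPM in parental dKO and 1558, 1776 and 1270.4 in resistant dKO (log2 fold change 12.09 ± 1.37, edgeR adjusted p = 8.45e-05). COL1A1, which encodes a chain of type I collagen, measured 0.65, 0.97 and 8.22 CPM against 4082, 4372 and 2499 (10.12 ± 1.25, adjusted p = 0.000161). COL3A1, type III collagen, measured 0, 0 and 0.057 CPM against 80.1, 37.5 and 9.88, a ratio of 2384 (95% exact counting interval 428 to 94207). The lowest resistant dKO library of each exceeded the highest parental dKO library many times over, and parental dKO library 3 held the highest parental value for SPARC and COL1A1.

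Type VI collagen COL6A3 rose to 14.3, 25.7 and 29.5 CPM from 0, 0 and 0.057, a ratio of 1194 (95% exact counting interval 214 to 47199), and the periostin gene POSTN rose from 0.10, 0.13 and 0.11 to 42.9, 88.8 and 32.7 CPM (log2 fold change 8.83 ± 0.73). The basement membrane gene NID1 rose by a ratio of 168 (95% exact counting interval 57.1 to 817). Among enzymes, MMP2, a gelatinase, measured 3.21, 2.97 and 11.8 CPM in parental dKO and 141, 182 and 112 in resistant dKO (4.60 ± 0.61, edgeR adjusted p = 0.000251). LOXL4, a collagen crosslinker, measured 2.20, 5.10 and 2.64 against 181, 234 and 79.7 (5.64 ± 0.61). P4HA3, a collagen prolyl hydroxylase subunit, measured 0.25, 0.77 and 1.03 against 7.47, 7.86 and 4.51 (3.27 ± 0.75). Decreases were seen in MFAP5, a microfibril protein (54.3, 66.8 and 151 against 3.37, 5.37 and 6.73 CPM, -4.14 ± 0.53) and in MMP1, interstitial collagenase (3.31, 26.2 and 129 against 2.23, 0.72 and 0.86 CPM, -5.35 ± 1.40). Lower levels were also measured for the anchoring-fibril collagen COL7A1 (-1.55 ± 0.42), for decorin, DCN (-3.23 ± 0.99), and for the protease inhibitor SERPINE2 (-1.02 ± 0.32).
Collagen genes moved mostly upwards, and the decreases were spread over all 3 lists.
MMP1 was -3.52 without parental dKO library 3, and lost its call without resistant dKO library 2 (edgeR adjusted p up to 0.0653). With limma-voom, or with a replicate block on the compared libraries, MMP1 was not called either. COL7A1, the 1 collagen that fell, lost its call without parental dKO library 3 and resistant dKO libraries 1 and 2 (edgeR adjusted p up to 0.0555), DCN without parental dKO libraries 2 and 3 and resistant dKO libraries 2 and 3 (edgeR adjusted p up to 0.109), and SERPINE2 without parental dKO libraries 2 and 3 and resistant dKO libraries 1 and 3 (edgeR adjusted p up to 0.0935). The number of matrix-modifying genes that rose was 7 without parental dKO library 1 or resistant dKO library 2, and the number that fell was 1 without each knockout library other than parental dKO library 1. The number of glycoproteins and proteoglycans that fell was 5 without parental dKO library 1. DCN libraries of the groups overlapped. Among fibroblast markers, 3 of 6 averaged 1 CPM in resistant dKO against 2 of 6 in parental dKO, summed levels ran from 1.90 to 19.7 CPM in parental dKO and from 9.20 to 28.9 in resistant dKO, and THY1 stayed at or below 0.345 CPM. The receptor gene PDGFRB measured 0, 0.13 and 0.23 CPM in parental dKO and 2.52, 3.21 and 1.98 in resistant dKO, and PDGFRA 0.60, 0.32 and 0.11 against 2.62, 2.94 and 1.24. LUM measured 0.30, 2.65 and 10.2 against 20.1, 20.9 and 5.74, and overlapped. Their part in the result was not tested.

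**Figure D3:**
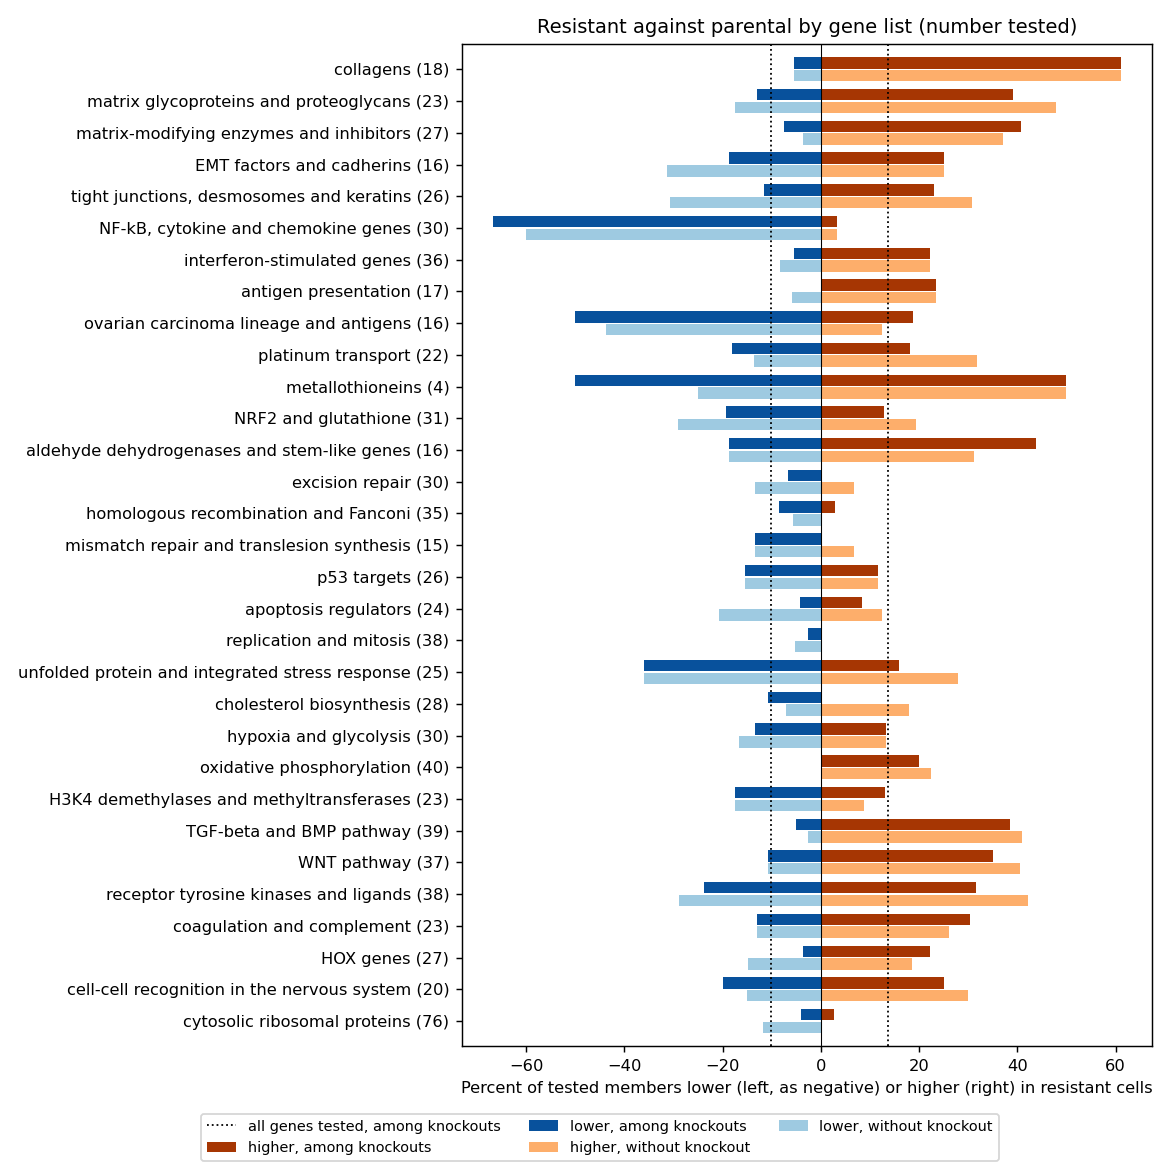
For each gene list, with the number of members tested in brackets, bars show the percent of tested members that rose (right) or fell (left, drawn as negative) in resistant cells, dark among knockouts and light without the knockout, and dotted lines mark 13.6% and 10.2% of all genes tested among knockouts. Collagen, TGF-beta and WNT lists extend mainly to the right and the NF-kB list mainly to the left.

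Junction and keratin genes moved in both directions. Of 26 tested tight junction, desmosome and keratin genes 6 rose and 3 fell (34.6% called, against 23.9% of all genes tested). The simple-epithelium keratin KRT8 measured 112, 207 and 300.0 CPM in parental dKO and 1045, 914 and 1176 in resistant dKO (2.34 ± 0.40, edgeR adjusted p = 0.00135). CLDN16, a paracellular cation claudin, measured 0.90, 5.81 and 1.90 against 26.0, 27.1 and 28.9 (3.27 ± 0.65). The hair keratin KRT81 measured 0.50, 0.97 and 0.52 against 86.4, 136 and 157 (7.58 ± 0.48). KRT19 fell from 55.1, 101 and 227 to 13.6, 18.4 and 20.6 CPM (-2.86 ± 0.67). CLDN3 fell from 3.76, 6.26 and 8.50 to 0.25, 0 and 0 (-6.00 ± 0.87), and CLDN1 from 381, 1305 and 247 to 146, 151 and 104 (-2.27 ± 0.60).
No library of resistant dKO reached the range of parental dKO for these 6 genes.
CLDN3 was -9.75 without resistant dKO library 1, CLDN1 was -1.23 without parental dKO library 2, and CLDN1 lost its call without parental dKO library 2 and resistant dKO library 3 (edgeR adjusted p up to 0.0996). In cells without the knockout CLDN1 was not called (-0.63, edgeR adjusted p = 0.442). It measured 383, 921 and 406 CPM in parental and 595, 248 and 260 in resistant cells there, with overlap. The number that fell was 5 without parental dKO library 1 and 6 without parental dKO library 3.

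Of 16 tested genes of the epithelial-mesenchymal programme, 4 rose and 3 fell (43.8% called, against 23.9% of all genes tested). ESRP2, an epithelial splicing regulator, fell from 10.9, 14.3 and 21.9 to 0.74, 1.33 and 1.48 CPM (-3.73 ± 0.44, edgeR adjusted p = 0.000107) and its paralog ESRP1 from 2.35, 3.03 and 0.40 to 0.099, 0.055 and 0, lower by a ratio of 34.7 (95% exact counting interval 11.5 to 171). N-cadherin, CDH2, rose from 17.7, 32.3 and 41.1 to 87.3, 125 and 109 CPM (1.82 ± 0.34, adjusted p = 0.00238). SNAI1, a repressor of E-cadherin, measured 0.45, 0.58 and 3.85 CPM against 14.5, 9.80 and 11.9 (2.89 ± 0.76), and CDH6 0.050, 0 and 0.29 against 33.6, 8.92 and 0.31 (6.89 ± 2.08).
CDH6 varied over 100-fold among the resistant dKO libraries, with library 3 close to the parental dKO values.
ESRP1 lost its call without resistant dKO library 2 (edgeR adjusted p up to 0.0597), SNAI1 without parental dKO library 2 (edgeR adjusted p up to 0.0547), and CDH6 without parental dKO libraries 1 and 2 and resistant dKO libraries 1 and 2 (edgeR adjusted p up to 0.101); SNAI1 was 4.53 without parental dKO library 3. The number of programme genes that rose was 2 without parental dKO library 1 or resistant dKO library 1 and 1 without parental dKO library 2, and the number that fell was 1 without resistant dKO library 2. Of 7 mesenchymal transcription factors 1 rose and 1 fell.

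TGF-beta and BMP genes rose more often than they fell, 15 against 2 of 39 tested, with a median log2 fold change of 0.51. In all 43.6% of them were called, against 23.9% of all genes tested. Ligands of this family bind paired receptor kinases that phosphorylate SMAD proteins. Of 11 ligands 7 rose and 1 fell, of 9 receptors 1 rose and 1 fell, and of 19 SMADs, targets and antagonists 7 rose. BMP7 measured 0, 0 and 0.11 CPM in parental dKO and 17.1, 17.8 and 15.6 in resistant dKO, a ratio of 446 (95% exact counting interval 123 to 3689). INHBA, which encodes the activin A subunit, measured 1.25, 3.03 and 2.13 CPM against 62.2, 83.8 and 44.2 (4.90 ± 0.53, edgeR adjusted p = 6.91e-05). TGFB2 measured 1.40, 2.78 and 2.99 against 39.5, 65.1 and 72.0 (4.63 ± 0.44, adjusted p = 2.6e-05).
Libraries of the groups did not overlap for any of these 3 ligands.
BMP2 was the ligand that fell, from 10.4, 14.3 and 8.16 to 2.92, 2.77 and 1.85 CPM (-2.12 ± 0.45), and BMPR1B the receptor that fell, from 7.77, 14.1 and 6.95 to 2.52, 1.72 and 0.37 (-2.62 ± 0.80). BMPR1B lost its call without parental dKO library 2 and resistant dKO libraries 2 and 3 (edgeR adjusted p up to 0.0898), and the number that fell was then 1. The number that rose stayed between 12 and 17 when single libraries were left out.

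Of 37 WNT pathway genes tested 13 rose and 4 fell (median 0.68, with 45.9% called against 23.9% of all genes tested). WNT ligands act through Frizzled and ROR receptors, and secreted antagonists limit them. Of 12 antagonists and targets 7 rose, while ligands had 3 increases and 2 decreases among 12 and receptors 3 and 2 among 13. ROR2, a receptor of the noncanonical branch, measured 0.15, 0 and 0.057 CPM in parental dKO and 10.9, 9.75 and 4.39 in resistant dKO (6.69 ± 0.83, edgeR adjusted p = 0.000165). Its paralog ROR1 measured 8.82, 31.7 and 4.88 against 2.52, 2.60 and 1.91 (-2.68 ± 0.68). The antagonist SFRP4 measured 0.45, 0.065 and 0.057 CPM against 14.8, 15.7 and 4.26 (5.81 ± 1.07). The ligand WNT6 measured 0.25, 0.19 and 0.17 against 7.08, 9.91 and 1.67 (4.87 ± 0.82).
ROR2 was low where ROR1 was high, and the groups overlapped for neither.
WNT7A, a ligand of Müllerian epithelium, measured 12.7, 46.9 and 261 CPM in parental dKO and 7.82, 18.2 and 23.8 in resistant dKO (-2.69 ± 0.87), with overlapping libraries. WNT7A was -0.85 without parental dKO library 3 and lost its call without parental dKO library 3 and resistant dKO libraries 1, 2 and 3 (edgeR adjusted p up to 0.338); ROR1 was -1.54 without parental dKO library 2 and lost its call there (adjusted p = 0.0777). The number that fell was 2 without parental dKO library 3 or resistant dKO library 1 or 3.

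Receptor tyrosine kinases and their ligands split, with 12 of 38 higher and 9 lower (55.3% called, against 23.9% of all genes tested). FGFR2, a fibroblast growth factor receptor, measured 1.10, 1.03 and 3.10 CPM in parental dKO and 90.5, 92.7 and 63.7 in resistant dKO (5.55 ± 0.70, edgeR adjusted p = 0.000186). The ligand FGF5 of its family measured 0.10, 0 and 0.11 against 4.26, 3.71 and 4.63 (5.68 ± 0.65). IGFBP2, which binds insulin-like growth factors, rose from 0.20, 0.32 and 0.80 to 39.7, 45.0 and 25.4 CPM (6.36 ± 0.74). The binding protein IGFBP1 fell from 4.41, 5.62 and 20.9 to 0.30, 0.39 and 0.80 CPM (-4.38 ± 0.70) and the EGF-family ligand EREG from 8.42, 19.2 and 4.31 to 0.15, 0.39 and 0.68 (-4.72 ± 0.89). VEGFA, the main angiogenic factor, fell from 758 ± 152 to 129 ± 43.6 CPM (mean ± SD, n = 3; -2.55 ± 0.49).
The libraries of the groups were apart for all 6 genes.

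Coagulation and complement genes included 7 increases and 3 decreases among 23 tested (43.5% called, against 23.9% of all genes tested). FGB (ENSG00000171564, chromosome 4, 154562956 to 154571086), the fibrinogen beta chain, had 0 reads in parental dKO and 51.1, 71.1 and 30.8 CPM in resistant dKO, at least 911-fold higher (edgeR adjusted p = 7.92e-05). FGG, the gamma chain, had 0 reads against 15.9, 13.5 and 1.30 CPM, at least 190.0-fold higher. In resistant cells with both KDM5 genes FGB measured 0.47, 4.69 and 1.89 CPM and FGG 0.47, 0.49 and 0, below every resistant dKO library, but the difference between the contrasts did not pass its test for either gene. The acute-phase inhibitor SERPINA3 rose from 0.25, 0.32 and 0.86 to 56.7, 49.5 and 2.90 CPM (6.23 ± 1.13), with library 3 of resistant dKO the lowest again. Complement C3 fell from 605, 1000.2 and 369 to 34.8, 13.9 and 3.27 CPM (-5.24 ± 1.05, adjusted p = 0.00373) and thrombomodulin, THBD, from 11.4, 8.58 and 24.0 to 2.13, 3.65 and 3.95 (-2.18 ± 0.58). THBD lost its call without parental dKO library 3 and resistant dKO library 1 (edgeR adjusted p up to 0.0658), and the number that fell was 1 without resistant dKO library 1.

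Ovarian carcinoma lineage and antigen genes fell more often than they rose, 8 against 3 of 16. Of this list 68.8% was called, against 23.9% of all genes tested. The secreted inhibitor SLPI measured 69.2, 361 and 334 CPM in parental dKO and 22.5, 19.7 and 6.79 in resistant dKO (-3.96 ± 1.01, edgeR adjusted p = 0.0136), and WFDC2, the serum marker HE4, 14.6, 6.97 and 5.06 against 1.24, 0.39 and 0.12 (-3.89 ± 0.70). CD24, a surface glycoprotein, measured 80.8, 343 and 1467 CPM against 62.2, 37.7 and 27.5 (-3.89 ± 1.30). The kallikreins KLK6 and KLK7 had 0 reads in parental dKO and 0.79, 1.55 and 0.86 and 6.09, 5.87 and 0.80 CPM in resistant dKO, at least 18.8-fold and 78.3-fold higher.
Groups were apart for all 5 genes, though CD24 in parental dKO spread over more than 10-fold.
CD24 was -2.33 without parental dKO library 3 and lost its call without parental dKO libraries 2 and 3 and resistant dKO libraries 1, 2 and 3 (edgeR adjusted p up to 0.16). The number that rose was 5 without parental dKO library 1. Mesothelial markers were above 1 CPM in both groups, with 2 of 5 in parental dKO (sum 5.51 to 60.8 CPM per library) and 3 of 5 in resistant dKO (60.5 to 71.4), and ITLN1 was at most 0.0495 CPM. CALB2, calretinin, measured 0.25, 0.13 and 0.40 CPM in parental dKO and 42.3, 25.5 and 25.9 in resistant dKO, without overlap. UPK3B measured 2.6, 24.0 and 27.75 CPM in parental dKO and 10.15, 10.5 and 4.94 in resistant dKO. LRRN4 measured 2.3, 2.52 and 32 against 18.7, 24.5 and 39.2. Libraries of the groups overlapped for UPK3B and LRRN4, and PRG4 stayed at or below 0.69 CPM. The part of these markers in the result was not tested.

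Recognition molecules of the nervous system showed 5 increases and 4 decreases among 20 tested (45% called, against 23.9% of all genes tested). TENM2 (ENSG00000145934, chromosome 5, 167284799 to 168264157), a teneurin that binds latrophilin receptors across cell contacts, measured 0.15, 0 and 0.46 CPM in parental dKO and 232, 348 and 266 in resistant dKO (10.36 ± 0.73, edgeR adjusted p = 3.19e-06). Its partner FLRT2 measured 0.10, 0.26 and 0.40 against 28.3, 34.0 and 33.3 (6.96 ± 0.48). Both were nearly absent from all parental dKO libraries. FLRT3 measured 1.55, 3.81 and 5.69 CPM against 0.49, 0.33 and 0 (-3.66 ± 1.21) and the synaptic adhesion gene NLGN1 0.45, 2.71 and 2.01 against 0.30, 0.11 and 0.062 (-3.35 ± 0.95). FLRT3 lost its call without parental dKO libraries 2 and 3 and resistant dKO libraries 1, 2 and 3 (edgeR adjusted p up to 0.11) and NLGN1 without parental dKO library 2 and resistant dKO libraries 2 and 3 (edgeR adjusted p up to 0.083). The number that fell was 2 without parental dKO library 2 or 3 and 1 without resistant dKO library 2 or 3. Of 5 neuronal markers 2 averaged 1 CPM in each group, with summed levels of 5.00 to 9.42 CPM in parental dKO and 9.64 to 17.4 in resistant dKO, without overlap. SYT1 made up most of the sum in resistant dKO (14.7, 11.1 and 8.34 CPM, against 5.96, 4.84 and 2.82 in parental dKO), and STMN2 had 0 reads in resistant dKO. The part of these markers in the result was not tested.

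HOX genes, which set position along the body axis, had 6 increases and 1 decrease among 27 tested, and 4 of the increases were in the 5 tested genes of cluster C. The 25.9% called is near the 23.9% of all genes tested. HOXC9 measured 1.90, 0.77 and 0.40 CPM in parental dKO and 10.9, 7.14 and 13.8 in resistant dKO (3.35 ± 0.59, edgeR adjusted p = 0.00169). HOXC10 measured 1.40, 0.19 and 0.34 against 4.75, 3.65 and 5.99 (2.85 ± 0.61), and HOXC13 measured 0.050, 0 and 0.11 against 1.53, 1.99 and 1.73, a ratio of 30.7 (95% exact counting interval 10.2 to 152). HOXB7 was the decrease, from 105, 90.7 and 132 to 67.0, 43.9 and 67.0 CPM (-0.88 ± 0.27). All 4 had libraries that did not overlap. HOXB7 lost its call without parental dKO libraries 1 and 3 and resistant dKO libraries 1 and 2 (edgeR adjusted p up to 0.118), so that no HOX gene fell without resistant dKO library 1 or 2, and 2 fell without parental dKO library 2. Scaled by library totals alone, no HOX gene fell.

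**Figure D4:**
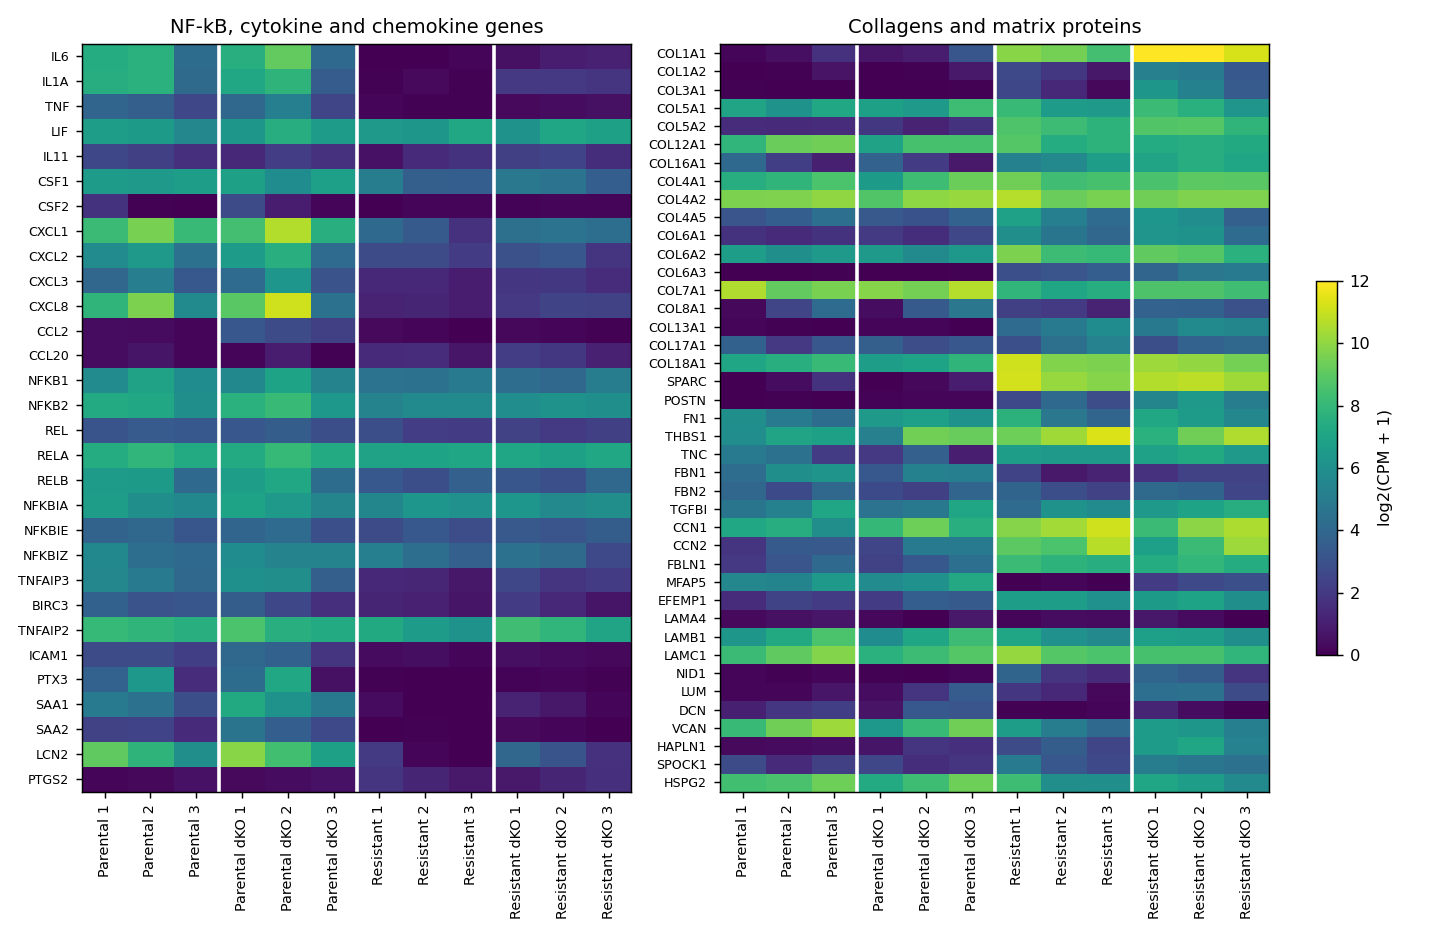
Colour gives log2(CPM + 1) of each tested member in each of the 12 libraries, with the 30 NF-kB, cytokine and chemokine genes on the left and the collagens and matrix glycoproteins and proteoglycans on the right. CXCL8 and IL6 are bright in parental dKO library 2 and dark in all resistant dKO libraries, and COL1A1 and SPARC are dark in parental dKO and bright in resistant dKO.

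Among genes of platinum transport 4 of 22 rose and 4 fell (36.4% called, against 23.9% of all genes tested). SLC22A2, an organic cation transporter that carries cisplatin in kidney, measured 0.050, 0.065 and 0 CPM in parental dKO and 16.3, 14.7 and 11.9 in resistant dKO, a ratio of 382 (95% exact counting interval 105 to 3156). SLC47A1, a cation exporter of the same route, measured 0.20, 0.13 and 0.17 against 7.47, 6.42 and 4.01 (5.09 ± 0.75, edgeR adjusted p = 0.000559). ATOX1, the chaperone that hands copper to export pumps, rose from 10.3, 9.36 and 16.6 to 40.9, 30.3 and 74.7 CPM (2.01 ± 0.38). Among decreases were LRRC8D, a subunit of the volume-regulated anion channel that admits platinum drugs (26.0, 46.5 and 53.3 against 13.4, 17.3 and 14.3 CPM, -1.48 ± 0.40), and the exporter ABCC2 (-1.47 ± 0.45).
Each of these 5 genes had groups that did not overlap.
LRRC8D lost its call without resistant dKO library 1 (edgeR adjusted p up to 0.0583) and ABCC2 without parental dKO libraries 1 and 3 and resistant dKO libraries 1, 2 and 3 (edgeR adjusted p up to 0.0881). The number that fell was 0 without resistant dKO library 1, and 2 without parental dKO library 1 or 3 or resistant dKO library 2 or 3.

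Of 10 metallothioneins, small cysteine-rich proteins that bind zinc, copper and platinum, 2 were abundant enough to test, and both rose. MT2A measured 117, 168 and 170.1 CPM in parental dKO and 373, 819 and 1977 in resistant dKO (2.80 ± 0.60, edgeR adjusted p = 0.00539), and MT1X 32.2, 35.6 and 15.7 against 56.8, 68.3 and 118 (1.54 ± 0.50, adjusted p = 0.0396). Resistant dKO library 3 was the highest for both. The zinc sensor MTF1 (-1.13 ± 0.30) and the zinc exporter SLC30A1 (-1.38 ± 0.44) fell. MT1X lost its call without parental dKO libraries 1, 2 and 3 and resistant dKO libraries 1, 2 and 3 (edgeR adjusted p up to 0.124), MTF1 without parental dKO library 2 and resistant dKO libraries 1 and 2 (edgeR adjusted p up to 0.0839), and SLC30A1 without parental dKO library 2 and resistant dKO libraries 1, 2 and 3 (edgeR adjusted p up to 0.198); SLC30A1 was -0.80 without parental dKO library 2. The number of the 4 tested genes that rose was then 1, and the number that fell was 0 without parental dKO library 2 or resistant dKO library 1 or 2 and 1 without resistant dKO library 3. The 250 bases before MT2A (chr16:56608334-56608583) and MT1X (chr16:56682220-56682469) are shown, RefSeq GRCh38.p14, plus strand, since metallothionein promoters are known for repeated metal-response cores; capitals mark TGCGCNC or TGCACNC on either strand.
MT2A: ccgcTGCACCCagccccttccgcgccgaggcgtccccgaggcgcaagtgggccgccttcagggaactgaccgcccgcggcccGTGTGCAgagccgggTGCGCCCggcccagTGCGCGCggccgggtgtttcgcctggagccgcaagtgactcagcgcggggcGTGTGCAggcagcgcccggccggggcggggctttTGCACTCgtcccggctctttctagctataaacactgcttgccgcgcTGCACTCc
MT1X: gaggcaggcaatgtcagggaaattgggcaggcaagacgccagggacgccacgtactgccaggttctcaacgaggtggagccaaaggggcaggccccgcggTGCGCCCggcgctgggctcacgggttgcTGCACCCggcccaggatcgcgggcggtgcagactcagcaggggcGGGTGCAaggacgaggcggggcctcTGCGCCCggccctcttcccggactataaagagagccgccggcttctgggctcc
The matches number 7 in MT2A and 4 in MT1X. Over the same 250 bases, 5 of 6 promoters of the list (83.3%) held at least 1. So did 24.7% of all 27305 promoters and 33.0% of the 11136 tested protein-coding ones.

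Antioxidant genes under NRF2 and of glutathione metabolism split, with 4 of 31 higher and 6 lower. Of this list 32.3% was called, against 23.9% of all genes tested. FTH1, the ferritin heavy chain that stores iron, measured 8632, 7979 and 4661 CPM in parental dKO and 481, 318 and 666 in resistant dKO (-3.86 ± 0.44, edgeR adjusted p = 9.23e-05), though its many processed copies can share reads. The aldo-keto reductase AKR1B1 measured 1217, 2782 and 1759 CPM against 618, 348 and 358 (-2.12 ± 0.44), and AKR1C1 16.8, 11.2 and 58.7 against 5.05, 3.27 and 5.00 (-2.70 ± 0.71). GSTA4, a glutathione transferase for lipid aldehydes, rose from 0.20, 0.13 and 0.23 to 16.2, 14.0 and 7.16 CPM (5.99 ± 0.71, adjusted p = 0.000119), and the quinone reductase NQO1 from 62.1, 89.3 and 142 to 291, 235 and 341 (1.56 ± 0.39).
Groups were apart for all 5 genes.
AKR1C1 was -1.66 without parental dKO library 3 and lost its call without parental dKO library 3 and resistant dKO library 2 (edgeR adjusted p up to 0.0667). The number that rose was 7 without parental dKO library 3.

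Aldehyde dehydrogenases and stem-like genes showed 7 increases and 3 decreases among 16 (62.5% called, against 23.9% of all genes tested). ALDH1A1 (ENSG00000165092, chromosome 9, 72900662 to 73080442), a retinal dehydrogenase used as a marker of tumour-initiating cells, measured 0.10, 0 and 0.23 CPM in parental dKO and 198, 130.4 and 96.4 in resistant dKO (10.20 ± 0.71, edgeR adjusted p = 3.19e-06). LGR5, a WNT-pathway receptor of stem cells, measured 0.050, 0.065 and 0.057 CPM against 7.42, 8.75 and 1.91, a ratio of 110.0 (95% exact counting interval 37.2 to 535). ALDH3A1 had 0.40, 1.55 and 1.90 CPM in parental dKO and 0 reads in resistant dKO, at least 22.3-fold lower. The pluripotency factor KLF4 fell from 23.4, 109 and 16.3 to 6.83, 4.60 and 6.24 CPM (-3.08 ± 0.66; -1.75 without parental dKO library 2). SOX9, a factor of progenitor cells, rose from 0.85, 0.39 and 2.59 to 15.4, 13.2 and 31.3 CPM (3.96 ± 0.93, adjusted p = 0.00894).
Resistant dKO libraries lay wholly above or wholly below parental dKO for each of the 5.

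Few DNA repair genes were called. In excision repair, which removes platinum crosslinks within a strand, 2 of 30 fell, GTF2H3 of TFIIH (103, 138 and 56.8 against 22.7, 19.4 and 25.6 CPM, -2.13 ± 0.39, edgeR adjusted p = 0.00204) and the damage sensor XPC (-0.94 ± 0.29). In homologous recombination and the Fanconi pathway 1 of 35 rose, FANCF (5.61, 8.84 and 6.03 against 18, 12.7 and 14.8 CPM, 1.15 ± 0.31), and 3 fell, the end-resection factor RBBP8 (53.2, 127 and 96.2 against 14.6, 17.3 and 34.3 CPM, -2.06 ± 0.52), BRCA2 (-1.45 ± 0.39) and the kinase ATR (-0.83 ± 0.22). In mismatch repair and translesion synthesis MLH3 (-0.85 ± 0.22) and PMS2 (-0.84 ± 0.27) fell among 15. Medians of the 3 lists were 0.15, -0.04 and 0.08, against -0.00 for all genes tested, and 6.67, 11.4 and 13.3% of the lists were called against 23.9% of all genes.
XPC lost its call without parental dKO libraries 1 and 2 and resistant dKO libraries 1 and 2 (edgeR adjusted p up to 0.136), FANCF without parental dKO library 1 and resistant dKO library 1 (edgeR adjusted p up to 0.078). RBBP8 lost it without resistant dKO libraries 1 and 2 (edgeR adjusted p up to 0.0572), BRCA2 without resistant dKO library 1 (edgeR adjusted p up to 0.0716), and PMS2 without parental dKO libraries 1 and 2 and resistant dKO libraries 1, 2 and 3 (edgeR adjusted p up to 0.12). ATR and MLH3 lost the call with a filter of 1 count only and in fits on the compared libraries alone, with or without a replicate block (edgeR adjusted p up to 0.133 and 0.145). The number of excision repair genes that fell was 1 without parental dKO library 2 or resistant dKO library 1 or 2. Without parental dKO library 1 no recombination or Fanconi gene rose; with parental dKO library 3 left out, 3 of the recombination and Fanconi genes rose and 5 fell, and with resistant dKO library 1 left out 0 rose and 1 fell. In mismatch repair and translesion synthesis 1 fell without each knockout library other than parental dKO library 3, and 1 rose without parental dKO library 1 or resistant dKO library 3. In counts simulated for this comparison over 17438 genes, 4.41% of 68 genes changed 2-fold and 47.0% of 66 changed 4-fold were recovered. Far fewer genes changed there than the 4281 called here, which makes the adjusted threshold stricter in the simulation. Small changes of repair genes may be missed, but the simulation does not measure how often.

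Of 26 p53 targets 3 rose and 4 fell, with TP53I3, a quinone oxidoreductase, higher (3.16, 4.26 and 12.3 against 56.1, 46.2 and 57.3 CPM, 3.02 ± 0.44, edgeR adjusted p = 0.000542) and the death receptor gene TNFRSF10B lower (-1.19 ± 0.32). The 26.9% called is near the 23.9% of all genes tested. SKOV-3 is known to lack functional p53. FDXR, a mitochondrial reductase, rose (1.47 ± 0.36), and SESN2 (-2.54 ± 0.54) and the kinase gene PLK3 (-1.5 ± 0.29) fell. Among 24 apoptosis regulators CASP8 (0.75 ± 0.20) and its inhibitor CFLAR (0.95 ± 0.23) rose, and the BH3-only gene HRK fell (16.2, 10.6 and 1.03 against 0.89, 0.78 and 1.61 CPM, -3.09 ± 1.01). Of 38 replication and mitosis genes the phosphatase CDC25B fell (385, 538 and 646 against 185, 160.4 and 253 CPM, -1.39 ± 0.31, edgeR adjusted p = 0.00688). Of the apoptosis list 12.5% was called and of the replication and mitosis list 2.63%, both below the 23.9% of all genes tested. TNFRSF10B lost its call without parental dKO library 2 and resistant dKO library 1 (edgeR adjusted p up to 0.0558), CASP8 without resistant dKO libraries 1 and 2 (edgeR adjusted p up to 0.0743), CFLAR with a filter of 1 count only or a replicate block on the compared libraries (edgeR adjusted p up to 0.0863), and HRK without parental dKO libraries 1 and 2 and resistant dKO libraries 1, 2 and 3 (edgeR adjusted p up to 0.134). HRK libraries of the groups overlapped, through parental dKO library 3. The number of apoptosis regulators that rose was 1 without resistant dKO library 1 or 2, and the number that fell was 2 without parental or resistant dKO library 3 and 0 without each other knockout library. The number of p53 targets that fell was 2 without parental dKO library 2 or resistant dKO library 1.

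Stress response genes divided by branch, and 52% of the list was called against 23.9% of all genes tested. In the transcription and amino acid arm of the integrated stress response 8 of 13 fell, while of 12 chaperones and lectins of the endoplasmic reticulum 4 rose and 1 fell. TRIB3, a pseudokinase induced by ATF4, measured 405, 1096 and 58.2 CPM in parental dKO and 20.2, 18.4 and 46.4 in resistant dKO (-4.20 ± 0.94, edgeR adjusted p = 0.00699). DDIT3, the factor CHOP, measured 195, 208 and 18.1 against 14.0, 12.4 and 13.7 (-3.39 ± 0.78). PPP1R15A, which reverses translational arrest, measured 458, 546 and 29.6 against 23.5, 23.4 and 47.4 (-3.46 ± 0.97). Parental dKO library 3 was the lowest of its group for all 3, and for PPP1R15A it lay inside the range of resistant dKO. TRIB3 and DDIT3 lost their calls with a replicate block on the compared libraries (edgeR adjusted p = 0.0786 and 0.0558). CRELD2, a chaperone-like secreted protein, rose from 15.2, 8.45 and 23.3 to 57.0, 91.8 and 83.9 CPM (2.31 ± 0.36, adjusted p = 0.000795) and SDF2L1 from 19.3, 8.00 and 16.9 to 35.0, 51.5 and 39.1 (1.5 ± 0.37). PPP1R15A lost its call without parental dKO library 2 and resistant dKO libraries 1 and 2 (edgeR adjusted p up to 0.0833) and SDF2L1 without resistant dKO library 2 (edgeR adjusted p up to 0.0545). Over the whole list the number that fell, 9, was 3 without parental dKO library 2 or resistant dKO library 1 or 2 and 5 without resistant dKO library 3, and the number that rose, 4, was 2 without parental dKO library 1 or 2 and 1 without resistant dKO library 2.

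Cholesterol synthesis showed 3 decreases among 28 genes (DESeq2 called 5 lower), with a median of -0.45. The 10.7% that fell by edgeR is near the 10.2% of all genes tested that fell. EBP, a sterol isomerase, measured 55.7, 29 and 34.4 CPM in parental dKO and 4.70, 6.70 and 6.98 in resistant dKO (-2.70 ± 0.50, edgeR adjusted p = 0.00248). IDI1, which isomerises isopentenyl diphosphate, measured 22.8, 46.0 and 62.2 against 11.4, 11.7 and 23.7 (-1.49 ± 0.46). Without the knockout 5 of the same genes were called higher and 2 lower in resistant cells, with a median of 0.73, and no gene of the list passed the test of the difference. IDI1 lost its call without parental dKO libraries 2 and 3 and resistant dKO libraries 1 and 2 (edgeR adjusted p up to 0.114). IDI1 libraries of the groups overlapped. The number that fell was 1 without parental dKO library 2 or 3 or resistant dKO library 1 or 2, and 1 gene rose without parental dKO library 3.

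Hypoxia and glycolysis genes were 4 higher and 4 lower among 30, and the 26.7% called is near the 23.9% of all genes tested. SLC2A3, a neuronal-type glucose transporter, had 0 reads in parental dKO and 6.93, 10.8 and 4.51 CPM in resistant dKO, at least 132-fold higher, and EGLN3, an oxygen-sensing prolyl hydroxylase, rose from 0.20, 0.13 and 0 to 5.54, 4.32 and 7.47 CPM (5.60 ± 0.75, edgeR adjusted p = 0.00028). EPAS1, the factor HIF-2 alpha, fell from 448, 1014 and 107 to 36, 35.4 and 35.6 CPM (-3.87 ± 0.76, adjusted p = 0.00336), and ADM, adrenomedullin, from 45.1, 21.7 and 13.6 to 6.93, 7.31 and 10.0 (-1.73 ± 0.52). Without the knockout ADM was not called and its change was positive (1.05). It measured 22.1, 8.77 and 6.57 CPM in parental and 21.9, 18.3 and 37.4 in resistant cells. The difference of -2.78 between the contrasts did not pass edgeR's test (adjusted p = 0.484). Among knockouts ADM was -1.14 without parental dKO library 1 and lost its call without parental dKO library 1 and resistant dKO libraries 1 and 2 (edgeR adjusted p up to 0.137). The number that rose was 2 without resistant dKO library 1, and the number that fell was 2 without resistant dKO library 2.

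Of 40 nuclear genes of oxidative phosphorylation 8 rose (20%, against 13.6% of all genes tested) by edgeR (DESeq2 called 11), with a median of 0.24. COX7C of complex IV measured 87.5, 87.6 and 116 CPM in parental dKO and 250.5, 224 and 183 in resistant dKO (1.17 ± 0.28, edgeR adjusted p = 0.00941). ATP5MC3 (1.15 ± 0.31), NDUFB3 (1.03 ± 0.32), COX7A2 (0.99 ± 0.29) and ATP5F1A (0.96 ± 0.29) rose by about the same amount. Mitochondrially encoded transcripts went the other way, with a median of -0.70 over 30 genes on the mitochondrial chromosome and 6 called lower, and the share of the mitochondrial genome was highest in parental dKO library 3. Without the knockout the median of the same 30 genes was 0.23. The number of nuclear genes that rose was 3, 2 and 4 without parental dKO libraries 1, 2 and 3, and 1, 4 and 4 without resistant dKO libraries 1, 2 and 3. ATP5MC3 lost its call without parental dKO library 2 and resistant dKO library 1 (edgeR adjusted p up to 0.0631). NDUFB3 lost it without parental dKO libraries 1, 2 and 3 and resistant dKO libraries 1, 2 and 3 (edgeR adjusted p up to 0.116), COX7A2 without parental dKO libraries 2 and 3 and resistant dKO libraries 1 and 2 (edgeR adjusted p up to 0.121) and ATP5F1A without parental dKO libraries 1 and 2 and resistant dKO libraries 1 and 3 (edgeR adjusted p up to 0.0988). Of 76 cytosolic ribosomal protein genes 2 rose and 3 fell, and the 6.58% called lies below the 23.9% of all genes tested. The increases were RPL37A (0.98 ± 0.30) and RPL23A (0.99 ± 0.32, and 0.62 without resistant dKO library 3). Among the decreases were RPL9 (-1.22 ± 0.35) and RPLP0 (-1.07 ± 0.35). Many processed copies of these genes can share reads. RPL37A lost its call without parental dKO libraries 1, 2 and 3 and resistant dKO libraries 1, 2 and 3 (edgeR adjusted p up to 0.0836). RPL23A lost it without parental dKO libraries 1 and 2 and resistant dKO libraries 1 and 3 (edgeR adjusted p up to 0.156), RPL9 without parental dKO libraries 1 and 2 and resistant dKO libraries 1 and 2 (edgeR adjusted p up to 0.0835). RPLP0 lost it without parental dKO libraries 1 and 2 and resistant dKO libraries 1 and 2 (edgeR adjusted p up to 0.157); without resistant dKO library 3, 5 ribosomal protein genes fell and 0 rose. No ribosomal protein gene fell without parental dKO library 1 or 2 or resistant dKO library 1 or 2. The number that rose was 0 without parental dKO library 1 or 2 or resistant dKO library 1, and 1 without parental dKO library 3 or resistant dKO library 2.

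Interferon-stimulated genes showed 8 increases and 2 decreases among 36, and the 27.8% called is near the 23.9% of all genes tested. USP18, which dampens interferon signalling, measured 0.45, 0.32 and 0.63 CPM in parental dKO and 6.39, 6.26 and 6.73 in resistant dKO (3.76 ± 0.53, edgeR adjusted p = 0.000385). IFI6 measured 2.56, 1.23 and 14.7 against 47.0, 44.9 and 12.5 (2.5 ± 0.84). XAF1, which binds the apoptosis inhibitor XIAP, measured 0.35, 0.13 and 0.46 against 4.55, 2.22 and 0.49 (2.91 ± 0.93). IFI6 in parental dKO library 3 exceeded resistant dKO library 3. BST2, the viral tether tetherin, fell from 90, 104 and 292 to 8.51, 8.09 and 5.93 CPM (-4.43 ± 0.66, adjusted p = 0.000623) and SLFN5, a Schlafen protein, from 61.2, 108 and 6.09 to 10.7, 3.60 and 1.11 (-3.49 ± 1.04). In antigen presentation 23.5% were called, near the 23.9% of all genes tested: 4 of 17 rose (13.6% of all genes rose), HLA-C (1.55 ± 0.48), HLA-F (1.61 ± 0.49), the class I transactivator NLRC5 (1.69 ± 0.52) and the peptide-loading disulfide isomerase PDIA3 (1.16 ± 0.33).
HLA genes are polymorphic and near copies of each other, so reads may be shared among them.
No antigen presentation gene was called without parental dKO library 1 or 2 or resistant dKO library 1 or 2. HLA-C was also not called without parental dKO library 3, and HLA-F libraries of the groups overlapped. IFI6 was 4.18 without parental dKO library 3 and lost its call without parental dKO libraries 1 and 2 and resistant dKO libraries 1 and 2 (edgeR adjusted p up to 0.138), XAF1 without parental dKO libraries 1, 2 and 3 and resistant dKO libraries 1 and 2 (edgeR adjusted p up to 0.173), and SLFN5 without parental dKO library 2 and resistant dKO libraries 2 and 3 (edgeR adjusted p up to 0.0998). The number of interferon genes that rose was 5 without parental dKO library 1 and 4 without parental dKO library 2 or resistant dKO library 1 or 2, and 1 fell without parental dKO library 2 or resistant dKO library 2 or 3.

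Among 23 demethylases and methyltransferases of histone H3 lysine 4, the mark that KDM5 enzymes remove, 3 rose and 4 fell. The 30.4% called compares with 23.9% of all genes tested. Scaled by library totals 3 rose and 2 fell. KDM1B (19.7, 13.5 and 17.7 against 34.5, 27.9 and 42.5 CPM, 1.04 ± 0.28) and the methyltransferase SMYD3 (0.78 ± 0.26) rose, and KDM2B (49.1, 71.4 and 69.7 against 29.4, 28.9 and 39.6 CPM, -0.96 ± 0.27), SETD7 (-0.96 ± 0.27) and SETD1B (-0.87 ± 0.27) fell. KDM5C, the paralog that was not targeted, measured 184, 235 and 158 CPM in parental dKO and 210.2, 196 and 188 in resistant dKO and was not called (0.04 ± 0.25, edgeR adjusted p = 0.923). KDM1B lost its call without parental dKO library 2 and resistant dKO libraries 1 and 3 (edgeR adjusted p up to 0.065). SMYD3 lost it without parental dKO libraries 1, 2 and 3 and resistant dKO libraries 1, 2 and 3 (edgeR adjusted p up to 0.177), and KDM2B without parental dKO library 2 and resistant dKO libraries 1 and 2 (edgeR adjusted p up to 0.0715). SETD7 lost it without parental dKO library 2 and resistant dKO library 2 (edgeR adjusted p up to 0.101) and SETD1B without parental dKO libraries 2 and 3 and resistant dKO libraries 1, 2 and 3 (edgeR adjusted p up to 0.0989); without parental dKO library 2 no member was called. The number that rose was 1 without parental dKO library 1 or resistant dKO library 2 and 0 without resistant dKO library 1 or 3, and the number that fell was 0 without resistant dKO library 2 and 2 without resistant dKO library 3.

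The resistance contrast among knockouts was set beside the contrast in cells with both KDM5 genes, where 5030 of 17947 genes (28.0%) were called, 2728 higher (15.2%) and 2302 lower (12.8%), and where libraries did not overlap for 45.5%. The contrasts share no library but share 1 estimate of the spread. In both contrasts 1902 genes (10.6% of all tested) rose, which is 69.7% of those that rose without the knockout and 77.8% of those that rose among knockouts. In both 1413 genes (7.87%) fell, which is 61.4% and 77.0% of those that fell. The 3315 genes make up 18.5% of those tested. Of the 3315 genes with the same direction, 2019 (60.9%) changed less among the knockouts and 1296 changed more, and the median ratio of the log2 changes, knockout over wild type, was 0.92. Without wild-type parental library 2 the wild-type contrast called 3081 genes, and the number shared fell to 2194 without resistant dKO library 2.

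Calls seen in 1 contrast were mostly of the same sign in the other. A total of 826 genes rose without the knockout and were not called among knockouts, and 799 of them had a positive log2 change there, 405 at an unadjusted p under 0.05; their medians were 1.68 and 0.86. Of 889 that fell without the knockout alone, 857 had the same sign among knockouts (medians -1.25 and -0.71). A further 543 rose and 423 fell among knockouts alone, of which 529 and 415 had the same sign without the knockout. A test of the difference between the contrasts, gene by gene, was passed by 5 of 17947 genes (0.0279%), all with a more positive change among knockouts. With the library number as a replicate block over the 12 libraries 18 genes passed. Same-numbered parental and parental dKO libraries deviated together (correlations 0.66, 0.77 and 0.78), while resistant and resistant dKO libraries gave 0.57, -0.19 and 0.64. The test that 5 genes passed did not use this pairing. The block gave each number 1 effect over all groups, although same-numbered parental and resistant libraries had correlations of -0.03, 0.16 and -0.16. A fit that pairs libraries separately within parental and within resistant cells was not run. By DESeq2 67 genes passed, by limma-voom 5, with a filter of 1 count only 161, and 678 (3.78%) had an unadjusted p under 0.05 in edgeR. For all other genes a call in 1 contrast and not in the other does not show that the changes differ.

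The 5 genes form 2 patterns. CALB1 (ENSG00000104327, chromosome 8, 90058608 to 90095475), the calcium buffer calbindin, measured 284, 226 and 224 CPM in parental and 0.29, 0.30 and 0.26 in resistant cells, and 114, 254 and 339 in parental dKO and 9.50, 11.5 and 12.5 in resistant dKO. It fell in both contrasts, with log2 changes of -4.40 among knockouts and -9.71 without, a difference of 5.31 ± 0.55 (edgeR adjusted p = 0.00473). The noncoding RNA LINC02582 (ENSG00000261780, chromosome 18, 73324941 to 73349878) measured 232, 271 and 213 CPM in parental and 0.23, 0.43 and 0.21 in resistant cells, and 86.9, 192 and 229.7 and 6.43, 7.92 and 12.4 among knockouts, a difference of 5.41 ± 0.60 (adjusted p = 0.00494). SH2D4A, an adaptor with an SH2 domain (ENSG00000104611, chromosome 8, 19313617 to 19396218), had 32.9, 50.7 and 39.0 CPM in parental and 0 reads in resistant cells, and 21.1, 34.3 and 30.4 and 0.54, 0.94 and 1.61 among knockouts, so its difference is at least 4.69 when the empty group is set to 3 counts (adjusted p = 0.0381). For these 3 the resistant dKO libraries all exceeded the resistant libraries, and stayed far below both parental groups.
KRT81 (ENSG00000205426, chromosome 12, 52285913 to 52291534) measured 0.24, 0.51 and 0.31 CPM in parental, 2.28, 4.63 and 2.21 in resistant, 0.50, 0.97 and 0.52 in parental dKO and 86.4, 136 and 157 in resistant dKO, a difference of 4.49 ± 0.65 (adjusted p = 0.0381). LINC00922 (ENSG00000261742, chromosome 16, 65284499 to 65576300) measured 2.51, 3.20 and 2.59 CPM, 1.05, 1.58 and 1.58, 0.35, 0.77 and 0.29 and 8.12, 8.64 and 9.63 in the same order, a difference of 5.20 ± 0.60 (adjusted p = 0.00613).
Both were highest in resistant dKO, and LINC00922 was lowest in parental dKO.

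**Figure D5:**
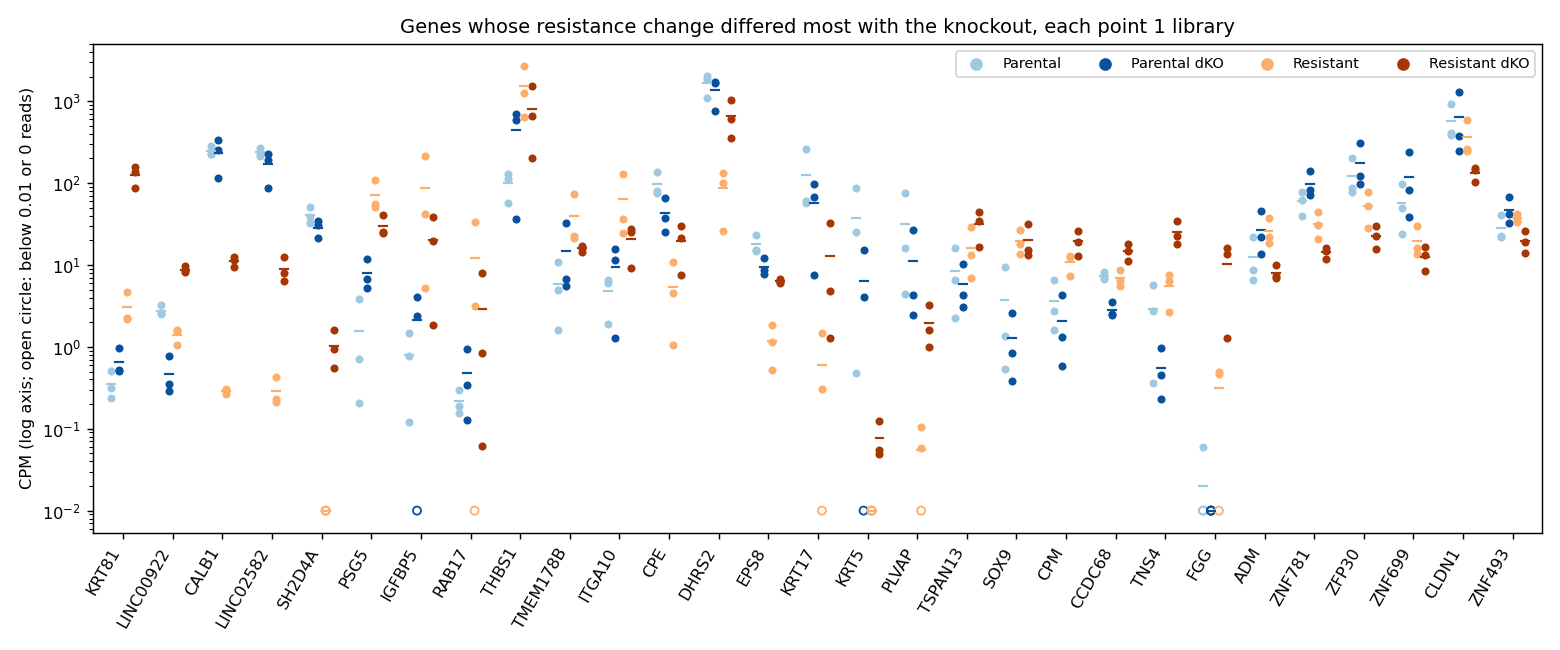
CPM of each library on a log axis in the 4 groups, for the 5 genes that passed the test of the difference (the first 5 on the x axis) and for genes called in 1 resistance contrast only; dashes are group means and open circles stand for 0 reads. CALB1, LINC02582 and SH2D4A are low in resistant cells and intermediate in resistant dKO, while KRT81 and LINC00922 are highest in resistant dKO.

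Genes called without the knockout and not among knockouts are described by their values, since none but the 5 above passed the test of the difference. PSG5, a pregnancy-specific glycoprotein with near-identical relatives, measured 3.82, 0.70 and 0.21 CPM in parental and 109, 55.1 and 51.6 in resistant cells, and 11.7, 6.78 and 5.29 in parental dKO and 25.3, 40.8 and 24.3 in resistant dKO (log2 changes 5.51 and 1.93). THBS1, a matrix glycoprotein that activates TGF-beta, measured 57.3, 129 and 111 and 646, 1244 and 2677 CPM without the knockout and 36, 707 and 598 and 205, 665 and 1536 with it (3.94 and 0.84). Parental dKO libraries lay above parental libraries for PSG5, and resistant dKO libraries lay below resistant libraries. For THBS1 both pairs of groups overlapped. For IGFBP5 the changes were 6.79 and 3.23, for RAB17 5.78 and 2.59, for ITGA10 3.73 and 1.12, and for TMEM178B 2.75 and 0.10. DHRS2, a mitochondrial dehydrogenase, measured 1102, 1888 and 2054 and 26.3, 100.4 and 132 CPM without the knockout and 756, 1736 and 1659.5 and 354, 612 and 1028 with it (-4.28 and -1.06), and EPS8, an actin regulator, 14.9, 15.2 and 23.3 and 0.53, 1.83 and 1.16 against 7.72, 8.58 and 12.2 and 6.09, 6.15 and 6.73 (-3.92 and -0.59; adjusted p of the difference 0.098). Resistant dKO libraries stood above resistant libraries for both. Changes of PLVAP were -8.96 and -2.52, of KRT17 -7.68 and -2.17 and of CPE -4.16 and -1.12; KRT5 had no reads in resistant cells (at least 706-fold lower) and a change of -6.30 among knockouts.

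Genes called among knockouts and not without them included TNS4, a focal adhesion protein, which measured 0.45, 0.97 and 0.23 CPM in parental dKO and 18.2, 22.6 and 34.0 in resistant dKO, and 5.62, 2.75 and 0.36 and 2.68, 6.34 and 7.62 without the knockout (log2 changes 5.51 and 0.94). CCDC68, a centriole protein, measured 2.51, 2.45 and 3.50 and 18, 15 and 11.1 CPM among knockouts and 8.30, 6.92 and 6.78 and 6.42, 8.77 and 5.52 without (2.38 and -0.09; adjusted p of the difference 0.142). Resistant dKO libraries were the highest of all 4 groups for both genes. Changes were 3.22 and 1.57 for CPM, carboxypeptidase M, and 2.45 and 0.95 for TSPAN13, whose call was lost without parental dKO libraries 1 and 2 and resistant dKO libraries 1 and 2 (edgeR adjusted p up to 0.0936). Among decreases 4 of the 6 genes named by the rule were zinc finger genes of chromosome 19, and the others were ADM and CLDN1, described above. ZNF781 measured 82.3, 142 and 71.2 and 11.9, 14.6 and 16.1 CPM among knockouts and 62.9, 77.2 and 40.2 and 21.0, 30.5 and 44.2 without (-2.79 and -0.91). ZFP30 measured 98.1, 312 and 121 and 15.8, 22.4 and 29.6 CPM among knockouts (-2.97, and -1.20 without the knockout). For ZNF699 the changes were -3.24 and -1.53, and for ZNF493 -1.24 and 0.38, whose call was lost without parental dKO library 1 and resistant dKO libraries 1 and 3 (edgeR adjusted p up to 0.0902). ZNF540, also on chromosome 19 (37551406 to 37614097), was the 1 gene called in opposite directions and is named for that after its values were seen: it fell among knockouts, from 9.22, 12.7 and 8.79 to 4.85, 6.15 and 2.84 CPM, and rose without, from 3.70, 3.59 and 5.38 to 7.06, 9.50 and 10.4, and its difference of -2.23 did not pass the test (adjusted p = 0.337).

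Genes that changed were not spread evenly over the chromosomes. The median log2 change among knockouts was 0.59 on chromosome 21, 0.49 on chromosome 5 and 0.43 on chromosome 2, and -0.54 on chromosome 7, -0.46 on chromosome 13 and -0.41 on chromosome 4. Without the knockout the medians of the same chromosomes were 0.47, 0.38, 0.28, -0.58, -0.71 and -0.59. On chromosome 5, 24.3% of 828 tested genes rose and 3.86% fell, and on chromosome 7, 7.38% of 840 rose and 22.4% fell. Copy number was not measured in these libraries.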

How the data were processed

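Poly(A) RNA of 12 SKOV-3 libraries was sequenced, and the authors deposited raw read counts per gene; the submitters' processing notes name STAR 2.7.10a with GRCh38, featureCounts 2.0.1 and Trim Galore 0.6.10. The annotation, the strand setting and the treatment of multiply mapped reads are not stated there. Without a stated strand setting, overlapping and antisense genes cannot be told apart. Of 59542 rows, 17947 genes passed edgeR's filterByExpr and were fitted with edgeR 4.0.16 (R 4.3.3, limma 3.58.1) over all 12 libraries, with TMM scaling, a robust quasi-likelihood F test (two-sided) and Benjamini-Hochberg adjustment at 0.05. The fit gave 3 contrasts: resistant dKO against parental dKO, the same without the knockout, and their difference. Groups follow the sample titles; 2 table columns spelled CDDK were matched to resistant libraries 2 and 3 through the sample descriptions. Folds against 0 reads use a floor of 3 counts over the group, and groups of 1 to 3 counts are given as a ratio with a 95% exact interval that covers counting error only. Library totals of 15659352 to 19706754 counts limit the precision for genes of few reads. Gene positions and names are those of GENCODE 29, promoters those of RefSeq. Named genes were the 12 largest increases and decreases (protein-coding, at least 10 CPM, no overlap), up to 5 called members of each list, the 6 genes per direction with the largest difference among those called in 1 contrast only, and all genes past the test of the difference. A few genes that this rule names are not reported here. The comparison and the gene lists were chosen with earlier results of these data known. Alternatives were DESeq2 1.42.0, limma-voom, other scalings and filters, fewer libraries in the fit, a replicate block and leaving out each library. The fit was tested on simulated data.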

Additional observations from a re-analysis of the deposited data

Results flagged for a closer look

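For 5 genes the resistance change differed between knockout and wild-type cells by edgeR's quasi-likelihood test of the difference itself with Benjamini-Hochberg adjustment. The difference, knockout minus wild type on the log2 scale, was 5.31 for CALB1 (adjusted p = 0.00473), 5.41 for LINC02582 (adjusted p = 0.00494), 5.20 for LINC00922 (adjusted p = 0.00613) and 4.49 for KRT81 (adjusted p = 0.0381). For SH2D4A it was at least 4.69 (adjusted p = 0.0381), with the resistant group, which had 0 reads, set to 3 counts. In each of the 5 genes all 3 resistant dKO libraries lay above all 3 resistant libraries. No cause of these differences was tested.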

How the results depend on the processing

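Of 166 named called genes, 98 kept the call in all 21 alternatives that gave a value, 68 lost it in at least 1, and 0 changed direction. Where a call is described as lost without given libraries, the adjusted p covers those fits only. Some of these genes, MMP1, DCN and CDH6 among them, also lost the call with limma-voom or a replicate block. Of 1302 counts of list members recomputed, 1032 stayed within 1.5 times. The 4281 genes called among knockouts ranged from 2714 to 4696 when single libraries were left out, those higher from 1661 to 2715 and those lower from 1010 to 2094; fitted on the compared libraries alone 1191 were lower. Without the knockout the range was 3081 to 5411, for genes called alike in both contrasts 2194 to 3506, and for the test of the difference 3 to 8. That test was passed by 67 genes with DESeq2, 161 with a filter of 1 count only and 11 with scaling by library size alone. Same-numbered parental dKO and resistant dKO libraries had correlations of deviations of 0.17, -0.44 and -0.12, so they share only a number; parental with parental dKO gave 0.66, 0.77 and 0.78, and resistant with resistant dKO 0.57, -0.19 and 0.64. With the number as a replicate block over the compared libraries 1803 genes were called, 1239 higher and 564 lower, and 1449 in both contrasts; over 12 libraries the block gave 4789, 5537 without the knockout, 3672 in both, and 18 for the difference. The difference has no value on the compared libraries alone, since it needs all 4 groups. The causes were not tested. Low counts limit what could be detected.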

Other observations

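Zinc finger genes (symbols starting ZNF or ZFP) on chromosome 19 were looked at after their values had been seen. Among knockouts 76 of 240 tested (31.7%) fell, against 10.2% of all genes, with a median log2 change of -0.70; without the knockout 36 fell, with a median of -0.37, and 34 fell in both contrasts. On other chromosomes 38 of 226 (16.8%) fell among knockouts, and of 842 other protein-coding genes on chromosome 19, 66 (7.84%) fell. The median level of the 240 genes, as log2(CPM + 1), was 4.13, 4.20 and 4.10 in parental dKO and 3.55, 3.53 and 3.52 in resistant dKO, and 4.07, 4.14 and 4.03 in parental and 3.61, 3.76 and 3.90 in resistant cells. The resistant dKO libraries lay below all 9 others, and no single gene of the set passed edgeR's test of the difference between the contrasts, while 15 had an unadjusted p under 0.05 towards a larger decrease among knockouts. These genes have many close relatives, so reads may be shared among them.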
